A study of Mus musculus with 9 samples.

Results

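The genes described here are 10 core pluripotency genes, the transcription factors Pou5f1, Sox2, Nanog and Sall4, the chromatin proteins Utf1, Dppa2 and Dppa4, the RNA-binding protein Lin28a, and the Nodal pathway proteins Tdgf1 and Gdf3. Their probes were found through the RefSeq accession that the array annotation gives, and they are 10 of 20660 genes that could be named on the array and 10 of 15013 that were tested. RNA came from 3 mouse embryonic stem cell lines, a wild type line, a line whose genotype is given as PKm1 knock-in and a line given as PKm2 knock-in, written PKM1 and PKM2 knock-in here, after M1 and M2, which arise from a single gene, Pkm, by alternative splicing and act in glycolysis. Each line was sampled on day 0, undifferentiated in medium with leukaemia inhibitory factor (LIF), and as embryoid bodies after 3 and 7 days of floating culture without LIF. There was 1 array for each line and day, 9 in all, each genotype is represented by 1 line, and neither a clone, a feeder layer nor further medium components are given in the sources used here.

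Pou5f1 (OCT4), Sox2 and Nanog are the transcription factors at the centre of the network that holds cells of the early epiblast, and embryonic stem cells derived from it, in a pluripotent state. OCT4 and SOX2 bind DNA side by side at many enhancers and promoters, including their own and that of Nanog, and LIF supports this network through STAT3. When LIF is removed and the cells aggregate into embryoid bodies, they leave the naive state, pass through a formative epiblast state in which Pou5f1 stays on, and then enter the germ layers and the extraembryonic endoderm, where Pou5f1 and its partners are normally shut down.

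The promoter of Nanog is printed here with that of Sox2 to show a close pair of octamer and SOX motifs and a separated pair. The windows are the 250 bases before the RefSeq gene start (build GRCm38.p6), 5′ to 3′ on the gene's strand, with an octamer core (ATGCAAA) and SOX cores (ACAAAG or ACAATG) on either strand in capitals.
Nanog, chr6:122707239-122707488, plus strand: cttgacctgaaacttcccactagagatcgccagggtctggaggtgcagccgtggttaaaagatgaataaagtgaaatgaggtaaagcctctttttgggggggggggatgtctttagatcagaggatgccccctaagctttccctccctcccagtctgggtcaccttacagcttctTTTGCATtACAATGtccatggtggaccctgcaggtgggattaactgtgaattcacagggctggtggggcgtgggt
Sox2, chr3:34649745-34649994, plus strand: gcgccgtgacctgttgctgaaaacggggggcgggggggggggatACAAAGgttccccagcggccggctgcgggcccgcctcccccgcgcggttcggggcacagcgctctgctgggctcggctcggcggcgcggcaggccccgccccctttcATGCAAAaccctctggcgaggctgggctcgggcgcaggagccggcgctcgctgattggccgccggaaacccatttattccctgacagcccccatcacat
In the Nanog window printed here the octamer core began 75 bases and the SOX core 67 bases before the start, so that they lay within 10 bases of each other. In the Sox2 window they lay 99 and 206 bases before the start. RefSeq windows were matched for 6 of the 10 genes, 8 windows in all, because Pou5f1 and Nanog had 2 each. Counting a gene with a motif in any of its windows, an octamer core was found for 2 genes, Nanog and Sox2. A SOX core was found for 4, Pou5f1, Sox2, Nanog and Lin28a, while Utf1 and Tdgf1 had neither. For Pou5f1 the SOX core stood only in the window chr17:35508557-35508806, and its window chr17:35505782-35506031 held neither motif. Of all 32851 RefSeq windows, 4.12% held the octamer core, 25.2% a SOX core, and 0.228% (75 windows) both within 10 bases. These shares count windows, unlike the counts of genes above. These matches describe letters in a window and do not show binding.

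The arrays had 54.2 to 61.6% of spots well above background and no saturated spot. All 18 probes of the 10 genes were well above background on all 9 arrays. Values are log2 of the processed signal after scaling each array to a common 75th percentile, so a difference of 1 is 2-fold, and levels of different probes cannot be set against each other. Both wild type arrays of days 0 and 7 were on slide 1 and both PKM1 knock-in arrays of those days on slide 2, so their differences lie within a slide, while slide 3 held no other array of the series than that of PKM2 knock-in day 7. With 1 array a line and day, a difference between days within a line has no replicate check and no p-value. Tests of a day used the 3 lines as repeats, so their p-values measure only the spread between these arrays. In bulk RNA, fewer cells that express a gene and less RNA per cell cannot be told apart.

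Of the 10 genes, 5 were lower by at least 2-fold at day 7 than at day 0 with the PKM1 knock-in, Pou5f1, Sox2, Dppa2, Dppa4 and Gdf3, where 10.4% of all genes tested were. None of the 10 reached 2-fold lower in wild type cells, where 5.02% of all genes did, or with the PKM2 knock-in, where 8.77% did. These counts use the brightest probe of each gene. The other 2 Tdgf1 probes were lower by more than 2-fold with the PKM1 knock-in (-1.95 and -1.83) and the PKM2 knock-in (-1.20 and -1.26). The median difference of the 10 genes from day 0 to day 7 was -0.23 in the wild type, -1.19 in the PKM1 knock-in and 0.11 with the PKM2 knock-in, beside medians of -0.03, -0.17 and 0.04 over all genes. Whether the lines differed in this could not be tested, because an interaction of line and day leaves no array to measure the spread.

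**Figure D1:**
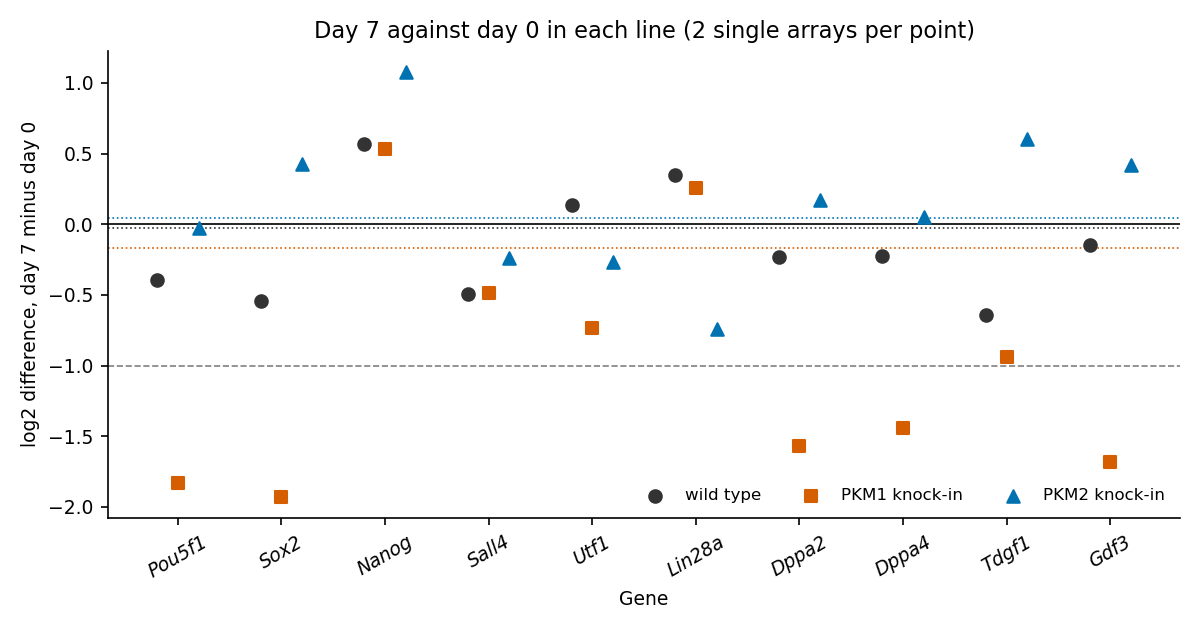
Log2 difference between the day 7 and day 0 arrays for each of the 10 genes (horizontal axis) in the wild type, PKM1 knock-in and PKM2 knock-in lines, 2 single arrays per point; dotted lines are the medians over all genes in each line and the dashed line marks 2-fold lower. The PKM1 knock-in points of Pou5f1, Sox2, Dppa2, Dppa4 and Gdf3 lie between -1.93 and -1.44, and Nanog lies above 0 in every line.

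These low values were seen on day 7 and not on day 3. On day 3 none of the 10 genes was lower than on day 0 by 2-fold in the wild type, the PKM1 or the PKM2 knock-in line, where 10.6%, 9.54% and 10.7% of all genes were. Between days 3 and 7, 6 of 10 were lower by 2-fold or more with the PKM1 knock-in (18.4% of all genes), Utf1 joining the 5 above, and none in the wild type (11.9%) or PKM2 knock-in line (3.66%). The PKM1 knock-in day 7 array had the lowest value of all 9 arrays for 8 of the 10 genes, Nanog and Lin28a being the exceptions. How many of all genes tested had their lowest value on this array was not counted. Its distance below the nearest other array was 1.57 for Dppa2, 1.40 for Pou5f1, 1.25 for Dppa4, 1.19 for Sox2 and 1.12 for Gdf3, but 0.48 for Utf1 and for Tdgf1 and 0.22 for Sall4.

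Pou5f1 encodes the POU factor without which the epiblast does not form. Its log2 signal on days 0, 3 and 7 was 14.85, 15.17 and 14.45 in wild type cells, 14.88, 15.04 and 13.05 with the PKM1 knock-in, and 15.00, 15.14 and 14.97 with the PKM2 knock-in. Apart from 1 array, the values thus lay within 0.72 of each other, and the PKM1 knock-in embryoid bodies of day 7 stood apart, 3.56-fold lower than their own day 0. In the wild type line the day 7 value was 1.31-fold lower than day 0, and with the PKM2 knock-in 1.02-fold lower. Levels on day 3 were at or above those of day 0 in each line, by 0.33 in the wild type and less in the others, but the mean change over lines, 0.21, was -0.0025 after quantile normalization.

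Sox2, the SRY-box partner of OCT4 that is also a factor of the neural plate, had log2 signals of 13.07, 12.70 and 12.53 on days 0, 3 and 7 in wild type cells. The PKM1 knock-in line had 13.19, 12.52 and 11.26, and the PKM2 knock-in line 12.45, 12.56 and 12.88. Sox2 was therefore lower on each later day in the wild type and PKM1 knock-in lines and higher on each later day with the PKM2 knock-in, which began 0.62 lower than the wild type line on the same slide. From day 0 to day 7 its signal was 1.45-fold lower in wild type cells and 3.81-fold lower with the PKM1 knock-in, but 1.34-fold higher with the PKM2 knock-in. In the PKM1 knock-in line this difference stood at percentile 2.10 of all genes, that of Pou5f1 at 2.44.

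Nanog, the homeodomain factor that guards against exit from the naive state, ran the other way. Its log2 signal was 7.01, 6.67 and 7.58 in wild type cells on days 0, 3 and 7, 7.78, 6.91 and 8.32 with the PKM1 knock-in, and 7.53, 7.18 and 8.60 with the PKM2 knock-in. In each of the 3 lines it was lowest on day 3 and highest on day 7, and no day 7 value overlapped a day 3 value. Day 7 was 1.48-fold higher than day 0 in the wild type, 1.45-fold in the PKM1 knock-in and 2.11-fold with the PKM2 knock-in. Nanog was read by 1 probe, the sequence of which was not used here, so signal from its retrocopies could not be told apart. This probe was dim, with scaled signals of 102 to 389, though well above background on every array. The probes that stand for the other members read 1151 or more.

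Sall4, a zinc finger factor that binds with OCT4 and NANOG, had small differences. Its log2 signals were 13.13, 13.32 and 12.63 in wild type cells, 12.82, 12.71 and 12.33 with the PKM1 knock-in, and 12.79, 12.63 and 12.55 with the PKM2 knock-in. The day 7 values lay below all day 0 values, by 0.50, 0.48 and 0.24 within the lines. The 3 Sall4 probes gave -0.62 to -0.50 in the wild type and -0.83 to -0.48 with the PKM1 knock-in, and from -0.24 to 0.15 with the PKM2 knock-in, where they did not share a sign.

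**Figure D2:**
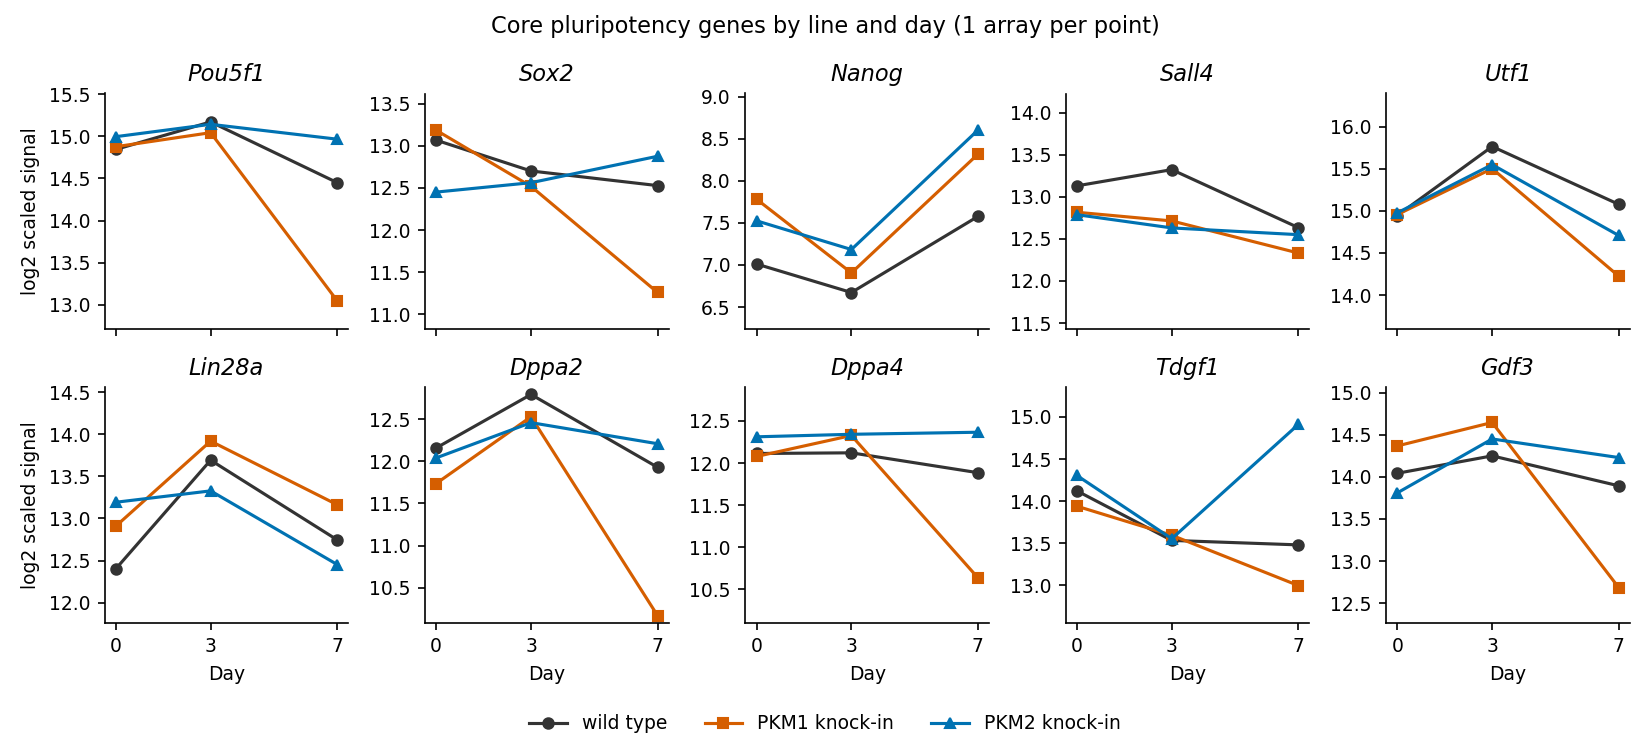
Log2 scaled signal of each gene (vertical axes, each spanning 2.8 log2 units) on days 0, 3 and 7 in the wild type, PKM1 knock-in and PKM2 knock-in lines, 1 array per point. Pou5f1, Sox2, Dppa2, Dppa4 and Gdf3 have their lowest points with the PKM1 knock-in at day 7, Utf1 peaks on day 3 in every line, and Nanog is lowest on day 3 and highest on day 7 in every line.

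Dppa2 and Dppa4 encode partner proteins with a SAP domain that keep developmental promoters poised, and the genes lie next to each other on chromosome 16. The log2 signal of Dppa2 was 12.16, 12.80 and 11.93 on days 0, 3 and 7 in wild type cells, 11.74, 12.53 and 10.17 with the PKM1 knock-in, and 12.04, 12.46 and 12.21 with the PKM2 knock-in. That of Dppa4 was 12.11, 12.12 and 11.89 in wild type cells, 12.08, 12.33 and 10.64 with the PKM1 knock-in, and 12.31, 12.34 and 12.37 with the PKM2 knock-in. On day 7 against day 0 with the PKM1 knock-in Dppa2 was 2.97-fold and Dppa4 2.72-fold lower, and outside that array Dppa4 varied by only 0.48 in all. The 2 Dppa2 probes gave -1.57 and -1.55 in this comparison and the 3 Dppa4 probes -1.64 to -1.37.

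Utf1, a chromatin-bound target of OCT4 and SOX2, was highest on day 3 in each line. Its log2 signals were 14.94, 15.76 and 15.08 in wild type cells, 14.96, 15.50 and 14.22 with the PKM1 knock-in, and 14.98, 15.55 and 14.71 with the PKM2 knock-in. The 3 day 0 values lay within an SD of 0.016, and all day 3 values lay above them. At day 7 the wild type line was 1.097-fold above its day 0, while the PKM1 and PKM2 knock-in lines were 1.66-fold and 1.20-fold below theirs.

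Lin28a, which blocks the maturation of let-7 microRNAs, also peaked on day 3. Its log2 signals were 12.40, 13.69 and 12.75 in wild type cells, 12.91, 13.92 and 13.16 with the PKM1 knock-in, and 13.19, 13.33 and 12.45 with the PKM2 knock-in. From day 0 to day 7 it was 1.27-fold higher in wild type cells and 1.19-fold higher with the PKM1 knock-in, but 1.67-fold lower with the PKM2 knock-in. By the probes that stand for the genes, Lin28a had the most negative difference from day 0 to day 7 with the PKM2 knock-in, -0.74. The Tdgf1 probes that do not stand for that gene were lower there, at -1.20 and -1.26. With the PKM1 knock-in, Lin28a was with Nanog 1 of 2 members above day 0.

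Gdf3 is a TGF-beta family ligand that signals with Nodal, and its gene lies beside Dppa3 and Nanog on chromosome 6. Its log2 signals were 14.04, 14.25 and 13.89 in wild type cells, 14.37, 14.65 and 12.69 with the PKM1 knock-in, and 13.81, 14.45 and 14.23 with the PKM2 knock-in. Day 7 was 3.21-fold lower than day 0 with the PKM1 knock-in, 1.11-fold lower in the wild type and 1.34-fold higher with the PKM2 knock-in. Nanog did not share this pattern, since it was highest on day 7 in each line. Dppa3, which lies between Gdf3 and Nanog, marks naive cells and germ cells. Its log2 signals were 8.94, 10.42 and 7.98 in wild type cells and 10.35, 11.33 and 7.996 with the PKM1 knock-in. They were 9.61, 7.98 and 8.54 with the PKM2 knock-in. In the wild type and PKM1 knock-in lines Dppa3 was, like Gdf3, highest on day 3 and lowest on day 7. With the PKM2 knock-in Dppa3 was lowest on day 3, where Gdf3 was highest.

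Tdgf1 (Cripto), the co-receptor through which Nodal and GDF3 act, was the gene for which the probes disagreed most on day 7 against day 0. The brightest of its 3 probes had 14.12, 13.53 and 13.48 in wild type cells, 13.94, 13.59 and 13.00 with the PKM1 knock-in, and 14.30, 13.55 and 14.91 with the PKM2 knock-in. By this probe day 7 differed from day 0 by -0.64, -0.94 and 0.61. The other probes gave -0.73 and -0.75 in wild type cells, -1.95 and -1.83 with the PKM1 knock-in, and -1.20 and -1.26 with the PKM2 knock-in. All 3 probes were thus lower at day 7 in the wild type and PKM1 knock-in lines, but the direction with the PKM2 knock-in depended on the probe. Over all 18 probes, 11 were lower by 2-fold or more with the PKM1 knock-in and none in wild type cells. With the PKM2 knock-in 2 were, both of them Tdgf1 probes. Genes with several probes enter these counts more than once, and the share of all probes on the array was not counted.

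**Figure D3:**
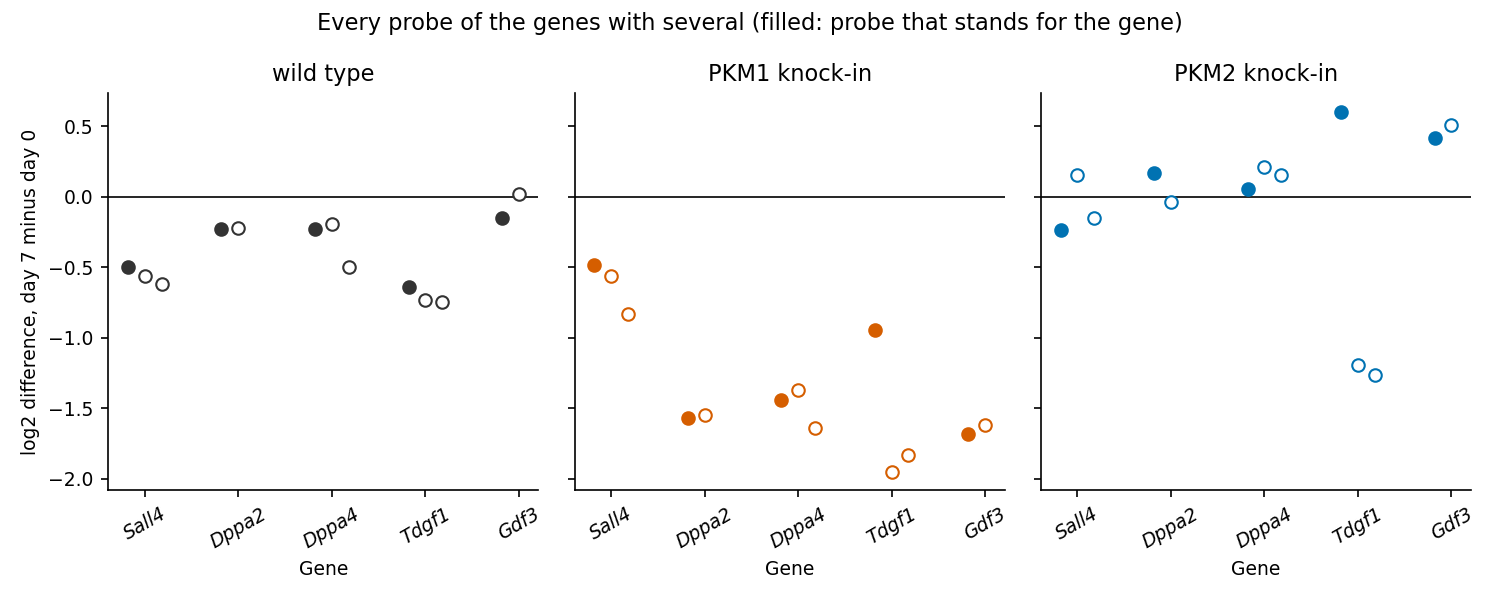
Log2 difference between day 7 and day 0 for every probe of the 5 genes with several probes, in 1 panel per line; filled points are the probe that stands for the gene and open points the others. In the PKM2 knock-in panel the Tdgf1 probes split between 0.61 and about -1.2, while the probes of Dppa2, Dppa4 and Gdf3 lie close together in the PKM1 knock-in panel.

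Across the 3 lines, no core gene passed the test of a day. With limma on all 9 arrays, line and day as terms and Benjamini-Hochberg adjustment over 15013 genes, 0 of 10 members had an adjusted p under 0.05 for day 3 against day 0 (4.06% of all genes did), for day 7 against day 0 (0.0999%) and for day 7 against day 3 (0%). Unadjusted p-values under 0.05 were found for 3, 1 and 5 members in these comparisons, and for 26.4%, 14.3% and 30.4% of all genes. The median change of the 10 genes was 0.15 on day 3 against day 0 (0.09 over all genes), -0.44 on day 7 against day 0 (-0.04) and -0.74 on day 7 against day 3 (-0.13). On day 7 against day 0, 9 of the 10 estimates were negative, Nanog being the exception, beside 53.5% of all genes. With the slide as a block, a fit to which the PKM2 knock-in day 7 array adds nothing because it was alone on its slide, the median on day 7 against day 0 was -0.84, and again 0 members were called.

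The smallest adjusted p-values belonged to Nanog and Utf1 between days 3 and 7, in opposite directions. Nanog was higher on day 7 by 1.24 ± 0.21 (SE, n = 3 arrays a day, higher in 3 of 3 lines, limma adjusted p = 0.0715), and Utf1 differed by -0.94 ± 0.22 (lower in 3 of 3 lines, limma adjusted p = 0.0830). Lin28a differed by -0.86 ± 0.28 between these days and by 0.81 ± 0.28 between days 0 and 3, each in 3 of 3 lines, with limma adjusted p of 0.110 and 0.133. Dppa2 differed by -1.16 ± 0.41 and Pou5f1 by -0.97 ± 0.38 from day 3 to day 7, both lower in 3 of 3 lines (limma adjusted p = 0.124 and 0.151). For 6 of the 10 genes, Nanog, Utf1, Lin28a, Dppa2, Pou5f1 and Gdf3, the day 7 values did not overlap those of day 3, as was the case for 31.6% of all genes tested. Without the PKM2 knock-in day 7 array 2 of 10 members passed for day 7 against day 3, as did 2591 of all 15013 genes, a similar share. The members were Dppa2 at -1.56 (limma adjusted p = 0.0470) and Nanog at 1.11 (adjusted p = 0.0345).

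For Pou5f1, the SD over the 3 lines was 0.080 on day 0, 0.067 on day 3 and 0.99 on day 7, so the spread of the day 7 arrays set the error of its change from day 0, -0.75 ± 0.38 (SE, limma adjusted p = 0.425). The change was -0.22 without the PKM1 knock-in day 7 array and -0.21 without that line. For Sox2 the change was -0.68 ± 0.42 (adjusted p = 0.486), with an SD of 0.85 on day 7. The Sall4 estimate of -0.41 ± 0.19 (lower in 3 of 3 lines, adjusted p = 0.394) and the Nanog estimate of 0.73 ± 0.21 (higher in 3 of 3, adjusted p = 0.225) rested less on 1 line.

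**Figure D4:**
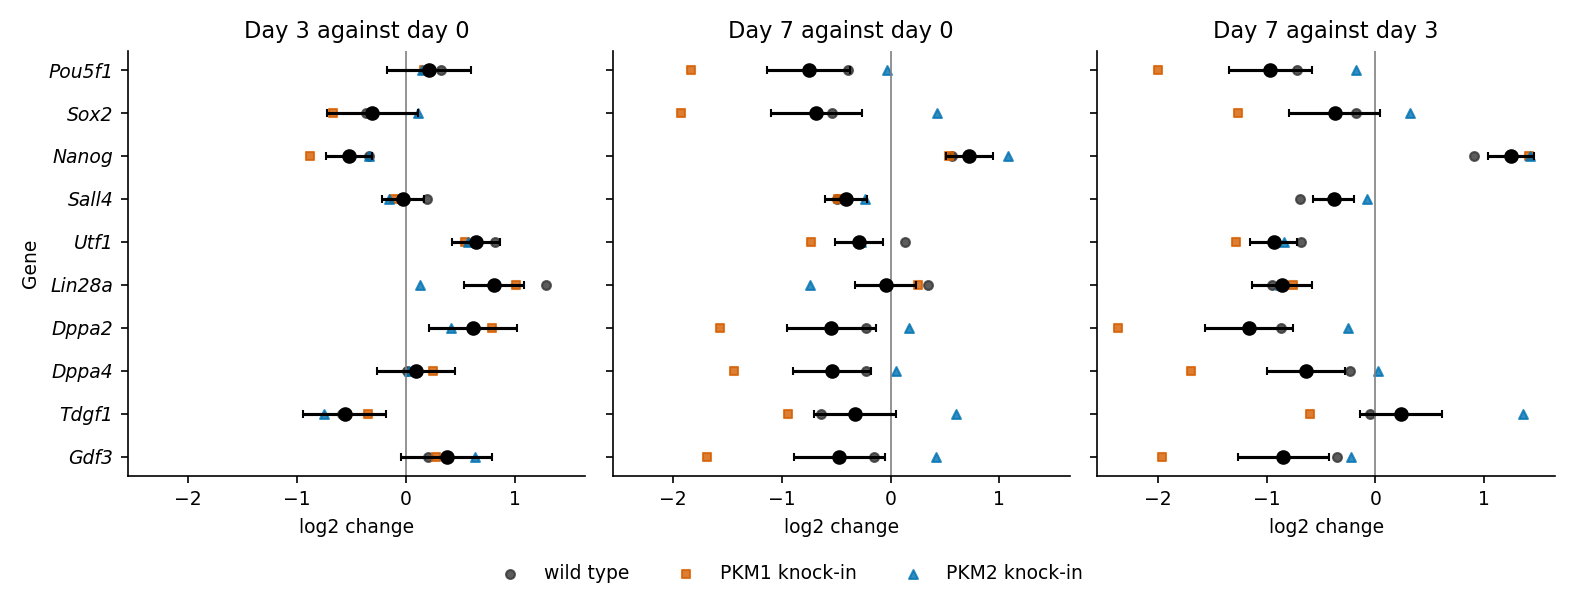
Log2 change of each gene between days in the limma fit (black points, bars ± 1 SE, 9 arrays) with the difference in each line as coloured points. For day 7 against day 0 the PKM1 knock-in points of Pou5f1, Sox2, Dppa2, Dppa4 and Gdf3 lie far to the left of the other lines, and the 3 lines lie close together for Nanog on day 7 against day 3.

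Between lines, over the 3 days, no core gene passed either. The counts were 0 of 10 for PKM1 knock-in against wild type (0.0133% of all genes were called), 0 of 10 for PKM2 knock-in against wild type (0.0133%) and 0 of 10 for PKM2 against PKM1 knock-in (0%). Unadjusted p-values under 0.05 were found for 1, 1 and 0 members, and for 12.1%, 13.3% and 7.77% of all genes. The member counts were thus no higher than the shares of all genes would give. The member was Nanog in both comparisons with the wild type. It was higher by 0.58 ± 0.21 with the PKM1 knock-in (limma adjusted p = 0.349) and by 0.68 ± 0.21 with the PKM2 knock-in (adjusted p = 0.247), on 3 of 3 days each; these comparisons share the wild type arrays. The member median was -0.36 for PKM1 knock-in against wild type, 0.07 for PKM2 knock-in against wild type and 0.29 for PKM2 against PKM1 knock-in. By day, the median difference between PKM1 knock-in and wild type was 0.02 on day 0, -0.03 on day 3 and -1.03 on day 7, beside 0.08, 0.00 and -0.05 over all genes. On day 0 Pou5f1 differed by 0.03 and Dppa4 by -0.04 between these lines, but Nanog by 0.77.

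Genes of the naive state were also low with the PKM1 knock-in on day 7. Of 14 naive pluripotency genes, 12 were lower there by at least 2-fold than on day 0 (median -2.18), against 1 in the wild type (median -0.64) and 2 with the PKM2 knock-in (median -0.15). Of all genes tested, 10.4%, 5.02% and 8.77% were lower by that much in these lines. Klf2, a Krüppel-like factor of the naive network, had the most negative value with the PKM1 knock-in, -2.78, and the highest with the PKM2 knock-in, 1.098. Across lines, 2 of the 14 fell from day 0 to day 3, where 4.06% of all genes were called in either direction. Klf4 fell by 2.12 ± 0.27 (limma adjusted p = 0.0226) and Tbx3 by 1.53 ± 0.31 (adjusted p = 0.0497), both LIF-responsive factors of the naive network. None of the 14 was called on day 7 against day 0, where 0.0999% of all genes were. Klf4 and Dppa3 had the largest estimates there, -1.65 ± 0.27 and -1.46 ± 0.73 (adjusted p = 0.124 and 0.417).

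Of 17 partners and targets of the core factors, 11 were lower by at least 2-fold on day 7 than on day 0 with the PKM1 knock-in (10.4% of all genes tested). None was in the wild type (5.02%) or with the PKM2 knock-in (8.77%). The medians were -1.20 with the PKM1 knock-in, -0.32 in the wild type and -0.02 with the PKM2 knock-in. Tet1, which oxidises methylated cytosine, had the most negative value with the PKM1 knock-in, -2.17. None of the 17 was called in any comparison of days, where 0 to 4.06% of all genes were. The largest estimates on day 7 against day 0 were those of Fbxo15, a direct OCT4 and SOX2 target, at -0.98 ± 0.39, and of the cell cycle factor Mybl2 at -0.96 ± 0.33 (limma adjusted p = 0.324 and 0.275).

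In the pathway of Gdf3 and Tdgf1, 2 of 16 tested Nodal signalling genes rose from day 0 to day 3, and none was called lower. The share of all genes called between these days, in either direction, was 4.06%. Lefty1, a Nodal antagonist and target, rose by 3.84 ± 0.76 (limma adjusted p = 0.0479). Gdf1, a ligand that pairs with Nodal, rose by 2.26 ± 0.24 (limma adjusted p = 0.0152). Nodal itself had 13.04, 13.68 and 12.73 in wild type cells, 12.64, 12.76 and 11.31 with the PKM1 knock-in, and 12.46, 12.91 and 12.59 with the PKM2 knock-in, and like Gdf3 was lowest in the PKM1 knock-in embryoid bodies of day 7. None of the 11 genes around LIN28 and let-7 was called in any comparison of days, where 0 to 4.06% of all genes were. The largest estimates on day 7 against day 0 were those of the let-7 target Hmga2, 1.26 ± 0.45 (adjusted p = 0.290), and of Arid3a, 0.88 ± 0.43 (adjusted p = 0.414).

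Of 10 formative and primed epiblast genes, 2 rose from day 0 to day 3, where 4.06% of all genes were called in either direction. Lef1 rose by 4.59 ± 0.55 and the DNA methyltransferase Dnmt3b by 2.16 ± 0.31 (limma adjusted p = 0.0193 and 0.0281), while Pou5f1 was near its day 0 level. On day 7 the median difference of the epiblast genes from day 0 was 1.07 in the wild type, 1.46 in the PKM1 knock-in and 1.03 with the PKM2 knock-in. Fgf5 and Lef1 had the largest estimates on day 7 against day 0, 4.60 ± 1.08 and 2.93 ± 0.55. Neither was called (limma adjusted p = 0.178 and 0.142), and 0.0999% of all genes were.

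Markers of extraembryonic endoderm had a median difference from day 0 to day 7 of 2.34 in the wild type, 8.93 in the PKM1 knock-in and 1.90 with the PKM2 knock-in. The median was thus above 0 in every line, and by far the highest with the PKM1 knock-in. The summed signal of 13 such genes tested of 14 listed was 17515, 9128 and 16264 on days 0, 3 and 7 in wild type cells, 17713, 8345 and 566410 with the PKM1 knock-in, and 9419, 7287 and 15228 with the PKM2 knock-in. Lama1 alone held 87.7 to 93.8% of the sums on days 0 and 3, so these sums mostly follow 1 gene. The median log2 signal of the 13 was 6.13, 6.09 and 9.27 in wild type cells. It was 5.29, 5.04 and 13.10 with the PKM1 knock-in, and 6.37, 5.06 and 8.30 with the PKM2 knock-in. All 13 were higher by at least 2-fold on day 7 than on day 0 with the PKM1 knock-in, against 9 in the wild type and 8 with the PKM2 knock-in. Of all genes tested, 14.3%, 7.47% and 8.8% were higher by that much in these lines. Gata4, an endoderm-determining factor, had 13.34 with the PKM1 knock-in on day 7, with 9.47 in the wild type and 8.29 with the PKM2 knock-in on that day. Afp, a secreted protein of visceral endoderm, had 17.70 on the PKM1 knock-in array of day 7, and no array of day 0 or day 3 had it well above background. Their part in the lower core gene signals of that array was not tested.

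Fibroblast and feeder cell markers were highest in sum on day 0 in each line and were higher again on day 7 than on day 3 in the wild type and PKM1 knock-in lines. The summed signal of 10 tested genes was 18947, 18814 and 4672 on day 0 in the wild type, PKM1 and PKM2 knock-in lines. It was 1878, 1157 and 819 on day 3, and 4790, 6335 and 652 on day 7. Dcn alone held 57.6% and 56.8% of the day 0 sums in the wild type and PKM1 knock-in lines. From day 0 to day 7, 3 of the 10 were higher and 4 lower by at least 2-fold in the wild type (7.47% and 5.02% of all genes). With the PKM1 knock-in 3 were higher and 3 lower (14.3% and 10.4%). With the PKM2 knock-in 0 were higher and 7 lower (8.8% and 8.77%). Across lines, 5 of the 10 fell from day 0 to day 3 (Dcn, Col1a2, Col6a1, Mgp and Ptx3), where 4.06% of all genes were called in either direction. In that interval Utf1 and Lin28a were higher in every line. Of the 10, 1, Mgp, was called lower on day 7 than on day 0, where 0.0999% of all genes were called. The part of these markers in the core gene values was not tested. Among the other lists, the 6 tested trophoblast genes had a median difference from day 0 to day 7 of 2.62 in the wild type, 3.61 in the PKM1 knock-in and -1.70 with the PKM2 knock-in. The 8 primitive streak and mesoderm genes had 1.17, 1.17 and -0.75, the 8 neural genes 0.36, -0.56 and -0.13, and the 5 germ cell genes 0.06, -0.79 and -0.37.

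**Figure D5:**
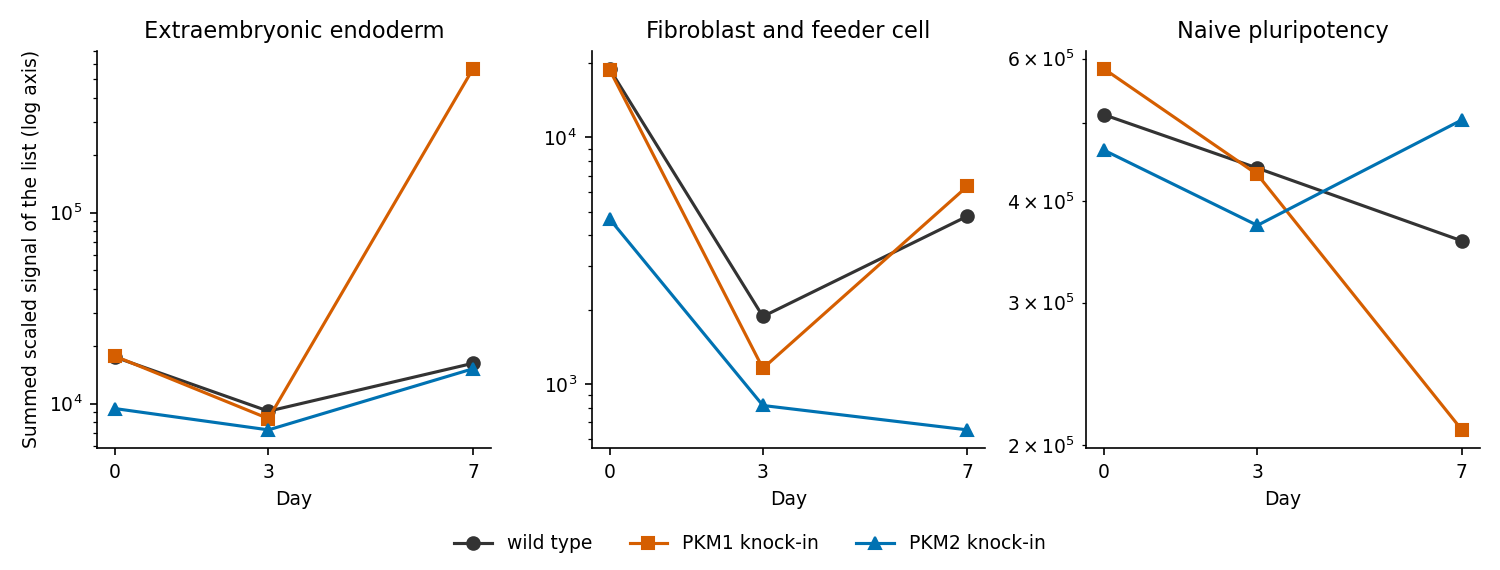
Summed scaled signal on a log axis of the extraembryonic endoderm, fibroblast and naive pluripotency lists on days 0, 3 and 7, 1 array per point. The extraembryonic endoderm sum of the PKM1 knock-in line on day 7, 566410, stands above all other arrays, and the same array has the lowest naive pluripotency sum, 209003.

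Over the 9 arrays the core genes did not vary as a unit. Pearson's r between their log2 signals, over 45 pairs, ran from -0.84 for Nanog with Utf1 to 0.98 for Pou5f1 with Dppa4, with a median of 0.45 and 11 pairs below 0. The PKM1 knock-in day 7 array carried much of this. Without it r went from 0.83 to -0.08 for Pou5f1 with Sox2, from 0.98 to 0.75 for Pou5f1 with Dppa4 and from 0.91 to 0.39 for Dppa2 with Dppa4. The opposite courses of Nanog and Utf1 (-0.80 over 8 arrays) and the common day 3 peak of Utf1 and Lin28a (0.85, against 0.59 over all 9) did not depend on it. The arrays share 3 lines and 3 days, so these values are descriptions.

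Outside the 10 genes, the patterns most like that of Pou5f1 over 9 arrays were those of Capsl (r = 0.98), Polr3f (0.98), Snx5 (0.98), Pou5f1-rs4 (0.98) and Tet1 (0.98). Pou5f1-rs4 is a related sequence of Pou5f1, so the signals of both may not be separable. For Sox2 they were Zfp160 (0.97), Dtwd2 (0.97), Klf2 (0.97), Supt7l (0.97) and Klk10 (0.97), and for Nanog Chkb (0.94), Amdhd2 (0.94), Samd14 (0.93), Asah1 (0.92) and Ric8a (0.92). Klf2 had 15.42, 14.60 and 14.57 in wild type cells, 15.38, 14.27 and 12.61 with the PKM1 knock-in, and 13.92, 14.17 and 15.01 with the PKM2 knock-in. It thus shared with Sox2 both the low PKM1 knock-in value on day 7 and the course upward with the PKM2 knock-in. No naive gene of the list was among the 5 nearest to Nanog.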

How the data were processed

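RNA from 9 samples was measured on 1-colour Agilent arrays. Per the submitters' processing notes and the file headers, the authors read the scans with Agilent Feature Extraction 10.10, which gives a background-subtracted processed signal per spot, and the intensity values analysed here are these processed signals as deposited. The authors' deposited value table, also intensity, differed from them by at most 0.497% and was an alternative.

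Control spots (3671 of 62976) and spots marked as outliers were left out and the spots of a probe averaged. Of 55681 probes, 27235 were named through a RefSeq accession (20660 genes). Signals were scaled to each array's 75th percentile, given a floor of 5 and turned to log2. A probe was kept when at least 3 arrays had it well above background, and the brightest stood for a gene. An additive model of line and day was fitted with limma 3.58.1 in R 4.3.3 to 15013 genes, with Benjamini-Hochberg adjustment over all of them and a call at an adjusted p under 0.05. The script was tested on simulated data. Alternatives were the background correction (normexp on median signals, since the files hold no mean foreground), scaling, filter, floor, probe choice, moderation, slide block, and leaving out each array, line or day.

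The members and lists were chosen with earlier results of these data known. All members were named with every probe. From each list up to 4 called genes with the largest change, or up to 2 where none was called, were named for the comparisons given, and the 5 genes with the most similar pattern to Pou5f1, Sox2 and Nanog. Nodal, Klf2, Tet1, Dppa3, Gata4 and Afp were also named, after their values were seen. Promoter motifs were read in the 250 bases before each start. Probe and protein sequences were not used here.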

Additional observations from a re-analysis of the deposited data

Results flagged for a closer look

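Sox2 moved in opposite directions in the lines. Both later days lay below day 0 in the wild type and PKM1 knock-in lines and above it in the PKM2 knock-in line. On days 3 and 7 the differences were -0.37 and -0.54 in the wild type and 0.11 and 0.43 with the PKM2 knock-in. Each of these was smaller in size than the residual SD of Sox2 in the limma fit, 0.61. The PKM2 knock-in day 7 array was also alone on its slide. The log2 change from day 0 to day 7 in the PKM2 knock-in line exceeded that in the wild type line by 0.97 and that in the PKM1 knock-in line by 2.35. These differences were not tested, since each line had 1 array a day.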

How the results depend on the processing

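For 32 results on the core genes, 768 alternative values were computed, of which 27, in 10 results, changed sign. Without the PKM2 knock-in day 7 array 2 core genes were called for day 7 against day 3 (0 to 2 over the arrays and lines left out). With the second brightest probe, chosen after seeing the data, 1 gene (Tdgf1) was lower by 2-fold in the PKM2 knock-in line on day 7 against day 0. Quantile normalization gave -0.12 for Dppa4 and -0.0025 for Pou5f1 on day 3 against day 0 and 0.014 for Lin28a on day 7 against day 0. The percentile over detected probes gave -0.091 for Dppa4 on day 3 against day 0, and it moved the median of all genes on day 3 against day 0 from 0.09 to -0.09 and on day 7 against day 3 from -0.13 to 0.09, with core gene medians of -0.03 and -0.52. The slide block gave 0.13 for Lin28a on day 7 against day 0 and -0.28 for Tdgf1 on day 7 against day 3, for which the mean of probes gave -0.64. Leaving out an array or line gave ranges on day 3 against day 0 of -0.21 to 0.28 for Dppa4, -0.032 to 0.50 for Pou5f1, -0.15 to 0.087 for Sall4 and -0.69 to 0.095 for Sox2. On day 7 against day 0 they were -0.95 to 0.014 for Dppa2, -0.92 to 0.14 for Gdf3, -0.26 to 0.30 for Lin28a and -0.84 to 0.036 for Tdgf1, and on day 7 against day 3 -0.82 to 0.16 for Sox2 and -0.33 to 0.65 for Tdgf1. Apart from the arrays and lines left out, the causes were not tested. Over all genes, calls for day 7 against day 3 numbered 0, but 36 with normexp, 81 with detection on all arrays, 256 with trend and robust moderation, 1053 with the slide block, 1537 with the PKM2 knock-in line left out and 2591 with only its day 7 array left out; those for day 7 against day 0 numbered 15 and ranged from 0 to 193. The number of arrays limits the precision.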
